A study of Mus musculus with 16 samples.

Results

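Long intergenic noncoding RNAs (lincRNAs) were examined in the mouse line C2C12, whose myoblasts stop dividing and fuse into myotubes once serum is reduced. The set held 101 of the 35275 genes of the deposited expression table: the 100 genes typed lincRNA whose mean level over the 16 libraries was at least 1 FPKM (fragments divided by the gene's length and by the size of the library), without the imprinted RNAs H19, Meg3, Rian and Mirg, and the transcript that hosts miR-206, whatever its level. The table listed 2769 lincRNA genes, of which 1464 had no fragment in any library, and the 100 chosen by level were 3.61% of them. Of the protein coding genes, 46.9% reached the same level. The mean level chose the members and is given only as a description.

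The study compared control cells with cells lacking the 3 microRNA genes for miR-206 and for both copies of miR-1a (triple knockout, tKO). All cells were PAX7 negative per the labels, and the knockout was represented by 2 clones (clone 1 and clone 2) and the control by 2 populations (population 1 and population 2). Growth medium (GM) held 20% fetal bovine serum, and differentiation (DM3) ran for 3 days in 2% horse serum. Each population or clone gave 2 libraries of poly(A)-enriched RNA per stage, labelled BR1 and BR2, so each genotype had 4 libraries in each stage. The 4 values of a group are given below in the order BR1 and BR2 of population or clone 1, then BR1 and BR2 of population or clone 2. Libraries of 1 clone share that clone, so the p-values measure the spread between these libraries and rest on 2 clones.

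LincRNAs are transcribed by RNA polymerase II from loci of their own, are often spliced and polyadenylated, and carry no long reading frame. Some act in the nucleus: Xist coats the inactive X chromosome, Malat1 collects in nuclear speckles and Neat1 builds paraspeckles. Others serve as precursors, because small nucleolar RNAs (snoRNAs) or microRNAs are cut from their introns or exons, and several lincRNAs are known regulators of myoblast differentiation.

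Depth was 22642563 to 56585952 fragments per library, and 11832 genes with a mean of at least 0.5 FPKM were tested, 100 of the members among them. Of 9 differentiated muscle markers in the table, 8 rose between GM and DM3 in control cells and 9 in tKO cells, and 5 of 5 proliferation markers fell in both. The muscle markers summed to 9.47 to 73.7 FPKM in the GM libraries and to 344 to 1459 FPKM in the DM3 libraries. Pax7 averaged no more than 0.00594 FPKM in any group. Endothelial markers summed to no more than 0.435 FPKM in any library, fibroblast markers to 0.748 to 5.82 FPKM, adipocyte markers to 0.349 to 11.5 FPKM and leukocyte markers to 0.738 to 4.04 FPKM. Pdgfra, Fabp4 and Cd68 had the highest means of the last 3 lists, and Pdgfra was lower in tKO than in control GM (-1.27, limma adjusted p = 0.00477). The part of such cells in the results was not tested.

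The annotation of the members was checked, because the lincRNA type comes from the deposited table. In GENCODE mouse release 21, 71 of the 101 are still typed lincRNA, 7 are transcripts of bidirectional promoters, 6 are antisense, 4 are processed transcripts, 2 are protein coding, 1 each is a pseudogene, a snoRNA and an unverified transcript, and 8 have no entry. RefSeq (GRCm38.p6) matched 74 members and types 66 of them lncRNA. It types 6 as protein coding, namely Gm2115, C330006A16Rik, 1810058I24Rik, Nav1, Gm22 and Gm6712. The row named Nav1 overlaps the protein coding gene of that name by 849 bases on the same strand. Gm6712 lies within Chd1 as the deposited table bounds that gene, but RefSeq coordinates give no overlap of Gm6712 with Chd1. In all, 12 members overlap a protein coding gene with a level of at least 0.5 FPKM by the deposited coordinates, 9 of them on the other strand. Whether fragments were counted by strand is not given in the sources used here, so fragments of such overlapping genes cannot be told apart.

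Sequences of 3 kinds are shown because the results refer to them. The first are the mature microRNAs of the miR-206 host transcript, with the seed (bases 2 to 8, the stretch that pairs with targets) in capitals, from RefSeq, GRCm38.p6:
mmu-miR-206-3p (chr1:20679055-20679076, + strand): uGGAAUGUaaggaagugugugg
mmu-miR-133b-3p (chr1:20682834-20682855, + strand): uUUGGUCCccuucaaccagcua

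The seeds differ, and the labels name the first of these microRNAs, not the second, among the deleted genes. The second kind are stretches of members that hold ACATTCCA, the complement of the miR-206 seed followed by A, in capitals. They are transcript sequences of GENCODE release 21, 30 bases each, read on the transcript strand:
1190002F15Rik (transcript bases 1977 to 2006): ccagaggacctACATTCCActcccagcacc
1810058I24Rik (transcript bases 2303 to 2332): tccttagagatACATTCCAtccctgtcaag
9330136K24Rik (transcript bases 2052 to 2081): ctctcctctccACATTCCAtggtaaactca
AU020206 (transcript bases 2004 to 2033): gcctttgactaACATTCCAgccttcctagg

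The third kind are the start sites of snoRNA host members. Transcripts of this class are known to begin with a run of pyrimidines, which is also found at the start of messenger RNAs for ribosomal proteins. Each sequence holds 30 bases before and 30 bases from the first transcribed base in RefSeq (GRCm38.p6), and the unbroken pyrimidines from that base on are in capitals:
Snhg1 (chr19:8723457-8723516, + strand): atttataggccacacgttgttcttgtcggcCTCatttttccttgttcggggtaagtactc
Snhg7 (chr2:26640215-26640274, - strand): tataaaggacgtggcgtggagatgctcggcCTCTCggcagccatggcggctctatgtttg
Snhg12 (chr4:132308648-132308707, + strand): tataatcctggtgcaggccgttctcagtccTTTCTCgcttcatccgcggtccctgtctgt
Snhg18 (chr15:32244633-32244692, - strand): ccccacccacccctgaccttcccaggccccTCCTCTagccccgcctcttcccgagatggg
Snhg20 (chr11:117076753-117076812, + strand): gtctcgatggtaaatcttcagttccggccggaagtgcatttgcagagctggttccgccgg

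Snhg20 is listed in the table as 2810008D09Rik, and the RefSeq first base of it is followed by no pyrimidine run. A run of at least 5 pyrimidines from the first base was present in 3 of these 5 genes and in 4.44% of the 32851 promoters in the RefSeq table. Of those 3 only Snhg7 begins its run with C, and 2.51% of the promoters had such a run beginning with C. The RefSeq tables matched 60 members with a promoter, 7 of which had a run of at least 5 pyrimidines, whichever came first.

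Levels spanned a wide range. Of the 100 members chosen by level, 38 averaged 1 to 2 FPKM, 51 averaged 2 to 10 FPKM and 11 were above 10 FPKM, with a median of 2.52 FPKM against 11.6 FPKM for protein coding genes chosen by the same level. The members just inside the limit were 1600020E01Rik and Gm26964, both at 1.01 FPKM, and the lincRNA genes just outside it were Trp53cor1, a target of p53, at 0.987 FPKM and 4833418N02Rik at 0.984 FPKM. In 67 of the 100 the mean was at least 1 FPKM in each of the 4 groups, in 6 it was so only in the GM groups, and in 7 only in the DM3 groups.

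The 5 highest members were Yam1, Malat1, Gm2115, C330006A16Rik and Xist, at means of 3568, 250.1, 45.1, 26.8 and 24.3 FPKM. Yam1, known as a YY1-dependent RNA of myogenesis, took 0.212% to 1.16% of the fragments of a library, while the other members together took 0.191% to 0.487%. The Yam1 gene (chromosome 17, 39846958 to 39848788) coincides in part with the RefSeq pseudogene Rn18s-rs5, which is related to small-subunit ribosomal RNA, so its fragments may be shared with near-identical ribosomal sequence and its level is uncertain. Malat1 (chromosome 19, 5795690 to 5802672) was the highest member without such a copy.

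More members differed between the stages than between the genotypes. The comparison of DM3 with GM asks which lincRNAs change as myoblasts become myotubes. In control cells 57 of the 100 tested members passed (limma, adjusted p under 0.05 over all 11832 genes), 24 higher and 33 lower in DM3, against 61.5% of all genes, 23.2% higher and 38.3% lower. Among the tKO libraries 53 members passed, 22 higher and 31 lower, against 60.9% of all genes, 24.9% higher and 36.0% lower. Among the 67 members at 1 FPKM or more in all 4 groups, which leaves out those that reached the limit through 1 stage, 34 passed in control cells (50.7%) and 31 in the tKO (46.3%). The median difference of the members was -0.11 in control and -0.08 in tKO cells on the log2(FPKM + 1) scale, beside -0.15 and -0.12 over all genes tested. The split depended on scaling: with median-of-ratios scaling it was 36 against 29 in control cells and 26 against 27 in tKO cells, and that scaling moved the median of all genes to 0.01. All 4 DM3 libraries were above all 4 GM libraries in 24 members of the control and below in 31, against 24.5% and 39.8% of all genes, and in 16 and 21 members of the tKO, against 19.3% and 29.8%. The control count fell to 26 without population 1 and to 32 without population 2, and the tKO count was 42 without clone 1 and 40 without clone 2.

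Among the 64 members that GENCODE still types lincRNA and that overlap no protein coding gene of the table at 0.5 FPKM or more, a selection made after the data were seen, 34 passed in control cells and 32 in the tKO, beside 61.5% and 60.9% of all genes. Some of the 64 overlap a protein coding gene listed below that level, as Xist, Gm22 and A330074K22Rik do.

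Most calls were shared. Of the 71 members called in either genotype, 39 were called in both, which is 68.4% of the control calls and 73.6% of the tKO calls, and all 39 had the same direction (14 higher, 25 lower). Of the 71 members, 18 passed in control cells alone and 14 in tKO cells alone. That a member passed in 1 genotype and not in the other was no evidence of a difference between them: the genotype by stage interaction passed in 0 members (limma), against 0.254% of all genes (0.203% higher and 0.0507% lower). An unadjusted p under 0.05 was reached by 12 members, against 10.8% of all genes. With voom, another test on the fragment numbers, the interaction also passed in 0, with 7 members at an unadjusted p under 0.05. Without the tKO DM3 library of clone 1 BR1 it passed in 2.

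**Figure D1:**
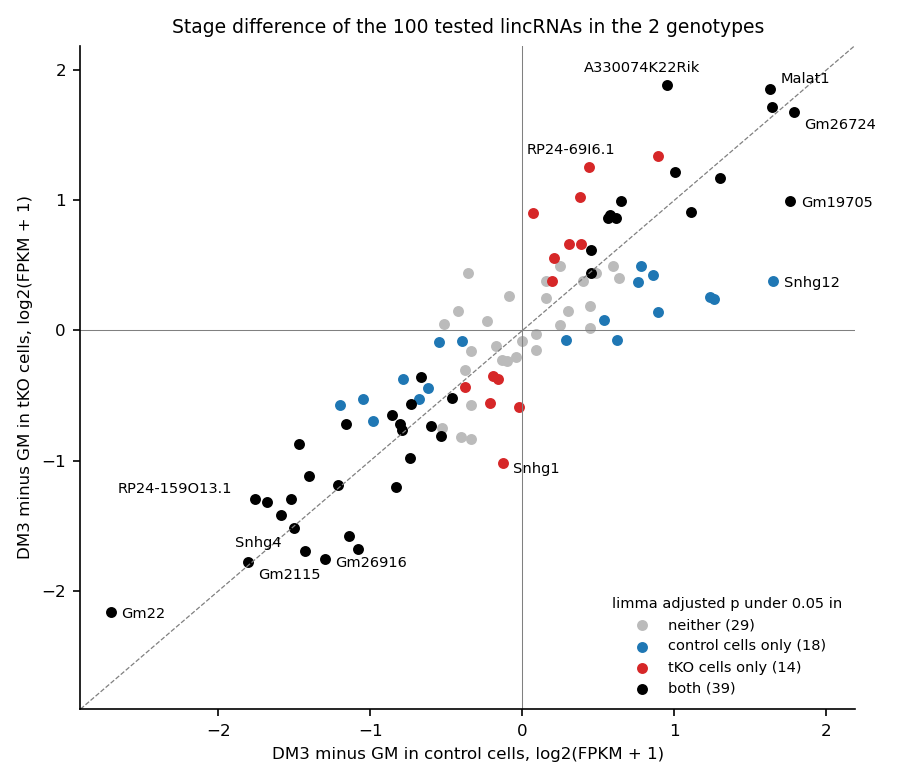
Difference between DM3 and GM of the 100 tested lincRNAs on the log2(FPKM + 1) scale, in control cells (x axis) and in tKO cells (y axis), each point 1 lincRNA coloured by where limma called it. The 39 members called in both genotypes (black) lie in the same quadrant for each member, and the dashed line marks equal differences.

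Malat1 had the largest rise among the 5 highest members. Its level was 97.1, 147, 70.03 and 165 FPKM in control GM and 288, 406, 275 and 483 FPKM in control DM3, and 85.7, 124, 101 and 134 FPKM in tKO GM and 307, 511, 367 and 440 FPKM in tKO DM3. Every DM3 library was above every GM library in both genotypes. The log2 difference was 1.63 (SE 0.26, limma adjusted p = 4.23e-05) in control and 1.85 (limma adjusted p = 1.13e-05) in tKO cells.

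The largest rise in control cells was that of Gm26724 (chromosome 17, 27201032 to 27203071), which GENCODE types as antisense and which lies within Lemd2, a gene of the inner nuclear membrane, on the other strand. It stood at 1.40, 0.707, 0.970 and 0.652 FPKM in control GM and at 5.84, 6.42, 6.13 and 4.26 FPKM in control DM3, a log2 difference of 1.79 (SE 0.24, limma adjusted p = 8.29e-06) with no overlap. In tKO cells it rose by 1.68 (limma adjusted p = 1.49e-05), from 0.644 ± 0.273 to 4.56 ± 2.27 FPKM (SD, n = 4). Lemd2 itself rose by 0.72 in control cells (limma adjusted p = 0.000813), from 34.3 ± 2.66 to 57.0 ± 1.67 FPKM, and the part of its fragments in the value of Gm26724 was not tested.

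Gm19705 and RP23-132E8.2, whose functions are not described here, also rose in both genotypes. Gm19705 (chromosome 1, 136670769 to 136690804) went from 0.971, 1.13, 0.656 and 1.22 FPKM to 4.06, 8.63, 4.59 and 6.53 FPKM in control cells (log2 difference 1.76, SE 0.24, limma adjusted p = 1.02e-05). In tKO cells its rise was 0.99 (limma adjusted p = 0.00188), and the difference between the rises did not pass (limma interaction, adjusted p = 0.422). RP23-132E8.2 (chromosome 4, 134741554 to 134743421) rose by 1.65 and 1.72 (limma adjusted p = 2.64e-06 and 1.59e-06), and its 4 DM3 libraries were above its 4 GM libraries in each genotype.

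A330074K22Rik, Gm14074, RP24-69I6.1 and Gm13431 were among the 8 largest rises in tKO cells. A330074K22Rik, whose start lies 2306 bases from that of Gse1, stood at 2.32, 0.940, 4.29 and 1.64 FPKM in tKO GM and at 7.61, 13.5, 8.05 and 13.99 FPKM in tKO DM3 (log2 difference 1.89, SE 0.30, limma adjusted p = 5.37e-05). In control cells it rose by 0.95 (limma adjusted p = 0.0122). Gm14074, listed in RefSeq as Platr3, a transcript first described in pluripotent cells, rose by 1.34 in tKO cells (limma adjusted p = 0.00764) and differed by 0.89 in control cells without passing (limma adjusted p = 0.0606). RP24-69I6.1 and Gm13431 rose in tKO cells by 1.26 and 1.22 (limma adjusted p = 0.000506 and 0.000572). The tKO GM libraries held only 3 to 23 fragments of Gm14074 and 3 to 22 of Gm13431.

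The largest fall in both genotypes was that of Gm22 (chromosome 8, 122269569 to 122272650), which both GENCODE and RefSeq name Zfp469, a zinc finger gene, and which RefSeq types as protein coding. It stood at 12.02, 10.4, 9.34 and 12.02 FPKM in control GM and at 0.357, 0.671, 0.683 and 1.87 FPKM in control DM3. In tKO cells it stood at 9.92, 8.14, 9.40 and 9.71 FPKM in GM and at 0.697, 2.42, 0.386 and 2.43 FPKM in DM3. The groups were far apart in both genotypes, with log2 differences of -2.71 (SE 0.27, limma adjusted p = 3.86e-07) and -2.16 (limma adjusted p = 3.91e-06). Gm2115, the next largest fall and likewise protein coding in RefSeq, went from 74.1 ± 6.06 to 21.8 ± 9.60 FPKM in control cells (SD, n = 4; log2 difference -1.81, limma adjusted p = 5e-05) and from 65.1 ± 14.1 to 19.2 ± 8.50 FPKM in tKO cells (-1.78, limma adjusted p = 5.54e-05). Both leading falls thus belong to genes that RefSeq counts as protein coding.

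Falls among members that no annotation types as protein coding were smaller. RP24-159O13.1 (chromosome 12, 104925501 to 104926142; Gm28875 in GENCODE) stood at 16.2, 14.8, 14.5 and 19.2 FPKM in control GM and at 4.20, 3.52, 3.57 and 5.01 FPKM in control DM3. It had the smallest adjusted p of the members (log2 difference -1.76, SE 0.15, limma adjusted p = 8.71e-08), and it fell by 1.29 in tKO cells (limma adjusted p = 2.1e-06). 4933404O12Rik fell by 1.59 and 1.41 (limma adjusted p = 1.42e-06 and 4.44e-06), from 8.90 ± 0.655 to 2.3004 ± 0.229 FPKM in control cells. B230354K17Rik, which starts 145 bases from Cdc5l, a splicing factor gene on the other strand, fell by 1.47 and 0.87 (limma adjusted p = 1.94e-05 and 0.00211), and Cdc5l fell by 0.69 and 0.78 (limma adjusted p = 2.31e-05 and 6.82e-06).

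6330403L08Rik overlaps Pdgfa, the gene of a platelet-derived growth factor, over 2315 bases on the other strand. It fell from 5.55 ± 0.760 to 1.03 ± 0.0507 FPKM in control cells (SD, n = 4; log2 difference -1.68, limma adjusted p = 1.42e-06) and by 1.32 in tKO cells (limma adjusted p = 1.66e-05). Pdgfa fell by 0.94 and 0.81 (limma adjusted p = 0.00654 and 0.016), and its part in the value of 6330403L08Rik was not tested.

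Other falls rested on few fragments. RP23-217K18.2 (Gm29630 in GENCODE) had 29 to 36 fragments in control GM and 2 to 10 in control DM3, and fell by 1.52 and 1.29 (limma adjusted p = 0.00122 and 0.00418). Gm26916, which overlaps the Dleu2 gene on the other strand, had 11 to 53 and 3 to 20 fragments in control cells and fell by 1.30 and 1.76 (limma adjusted p = 0.000199 and 1.04e-05). 5033430I15Rik had 39 to 57 and 3 to 26 fragments and fell by 1.14 and 1.58 (limma adjusted p = 1.57e-05 and 5.36e-07). Gm26916, 5033430I15Rik, 2010300F17Rik and Gm13834 averaged under 1 FPKM in both DM3 groups. They reached the 1 FPKM limit only through their GM libraries, so the choice of members favoured a fall. 2010300F17Rik and Gm13834 had 0 fragments in at least 1 library of each DM3 group. These 2 fell by 1.08 and 1.43 in control cells (limma adjusted p = 0.0162 and 0.0125) and by 1.68 and 1.69 in the tKO (limma adjusted p = 0.000755 and 0.00431).

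**Figure D2:**
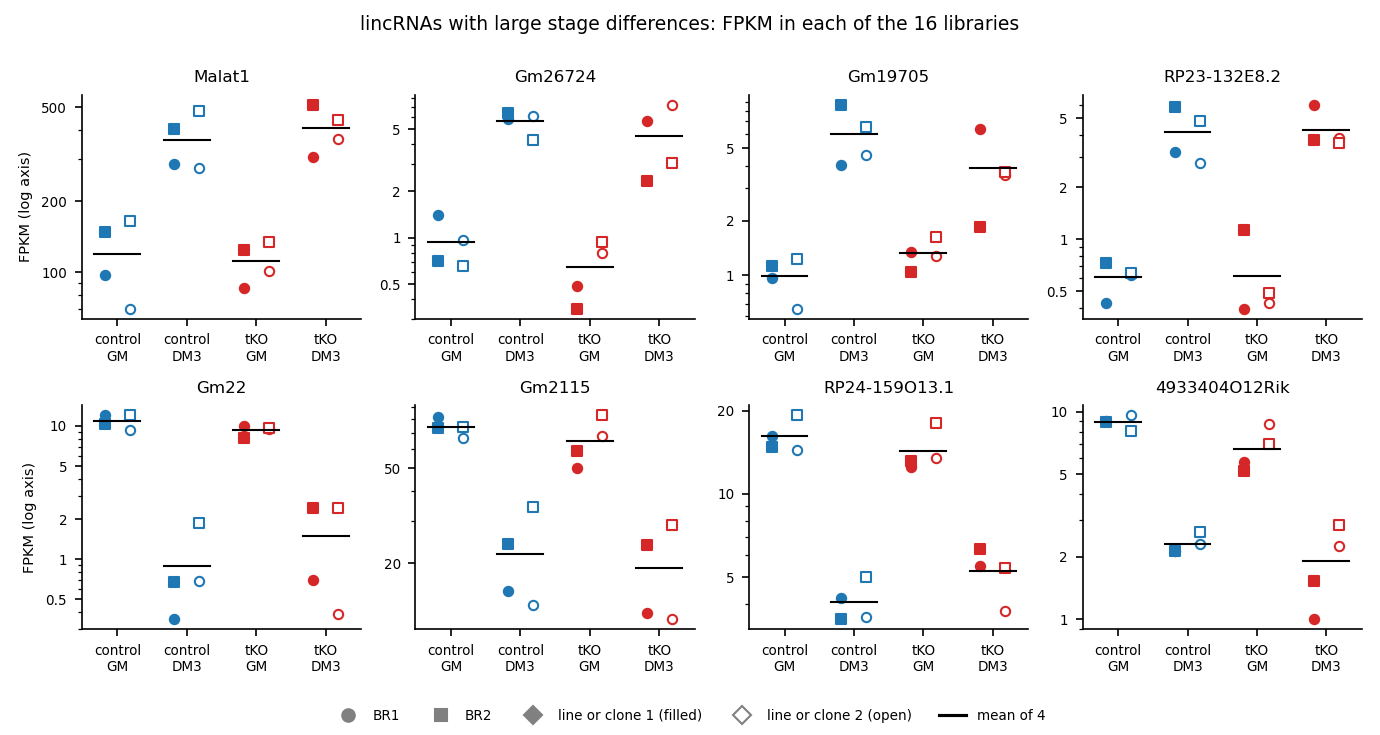
FPKM (log axis) of 4 members that rose and 4 that fell with differentiation in each of the 16 libraries, by group. Circles are BR1 and squares BR2 libraries, filled symbols are population or clone 1 and open symbols population or clone 2, and the bar is the mean of 4. In all 8 panels the DM3 libraries lie apart from the GM libraries of the same genotype.

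The snoRNA host genes held more members than any of the other 4 lists of noncoding RNAs compared, and most members were on no list. Of 20 such genes listed, 14 were tested, and 8 of these were members: Snhg1, Snhg4, Snhg6, Snhg7, Snhg12, Snhg18, 2810008D09Rik (Snhg20) and 2410004N09Rik (Epb41l4aos). Of the 14, 8 rose and 2 fell with differentiation in control cells, with a median difference of 0.66, and 1 rose and 5 fell in tKO cells, with a median of -0.33, beside -0.15 and -0.12 over all genes. Of all genes 23.2% rose and 38.3% fell in control cells, and 24.9% rose and 36.0% fell in the tKO. The interaction passed in 0 of the 14 (limma), with a median of -0.83.

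Among the members, Snhg12, Snhg18, Snhg6, 2410004N09Rik and 2810008D09Rik rose in control cells, by 1.65, 1.30, 1.24, 1.26 and 0.62 (limma adjusted p = 0.00205, 1.49e-06, 0.000378, 0.00038 and 0.0321). Snhg4 fell in both genotypes, by 1.51 and 1.52 (limma adjusted p = 0.000167 and 0.000151). Snhg18 rose in tKO cells as well, by 1.17 (limma adjusted p = 4.32e-06), and its groups did not overlap between the stages: 2.74, 2.31, 2.36 and 2.24 FPKM in control GM against 5.04, 9.09, 6.85 and 9.38 FPKM in control DM3, and 2.21, 2.26, 2.82 and 2.299 FPKM in tKO GM against 7.10, 6.87, 6.11 and 6.44 FPKM in tKO DM3. The start sites printed above are too few to compare the hosts that rose with those that fell. Snhg4, Snhg6 and 2410004N09Rik are not among them. Of hosts that rose in control cells, Snhg12 and Snhg18 each begin with a run of 6 pyrimidines and 2810008D09Rik (Snhg20) with no run. Snhg7, with a run of 5, fell in tKO cells (-0.59, limma adjusted p = 0.0232). Snhg1, which also fell in tKO cells, begins with a run of 3.

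Some of these hosts were higher in the GM libraries of clone 1 than in the others, without passing the test between the clones. Snhg12 stood at 5.18, 7.29, 8.04 and 11.4 FPKM in control GM and at 21.9, 34.6, 10.1 and 14.7 FPKM in tKO GM, so both clone 1 libraries were the highest of the stage and clone 2 overlapped the controls. Snhg1 stood at 5.07, 7.22, 6.99 and 8.87 FPKM in control GM and at 17.1, 23.3, 8.08 and 10.9 FPKM in tKO GM, with the same order. In 5 of the 8 hosts (Snhg1, Snhg4, Snhg7, Snhg12 and 2810008D09Rik) both clone 1 libraries were above the other 6 GM libraries, against 11 of the 100 members and 12.7% of all genes. Snhg6, Snhg18 and 2410004N09Rik showed no such order. Satellite cell and myoblast markers also split by clone in GM, summing to 70.2 to 93.2 FPKM in clone 1 and 45.6 to 48.0 FPKM in clone 2. The BR2 library of clone 1 held the highest GM sums of differentiated muscle markers (73.7 FPKM) and adipocyte markers (11.5 FPKM). Their part in the values of the hosts was not tested. In DM3 this order held for Snhg4 alone of the 8, against 7.97% of all genes. The comparison of clone 2 with clone 1 over both stages gave -1.18 for Snhg12, -0.82 for Snhg1 and -0.72 for Snhg4, none of which passed (limma adjusted p = 0.0758, 0.107 and 0.105).

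The stage differences in tKO cells start from that uneven GM level. Snhg1 fell by 1.02 in tKO cells (limma adjusted p = 0.00814) and differed by -0.13 in control cells (limma adjusted p = 0.736). Its tKO DM3 level of 11.1, 5.85, 4.49 and 5.25 FPKM overlapped that of control DM3, at 3.96, 9.51, 6.11 and 6.46 FPKM. Snhg12 differed by 0.38 in tKO cells without passing (limma adjusted p = 0.43), with tKO DM3 at 58.3, 24.5, 16.7 and 14.3 FPKM.

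**Figure D3:**
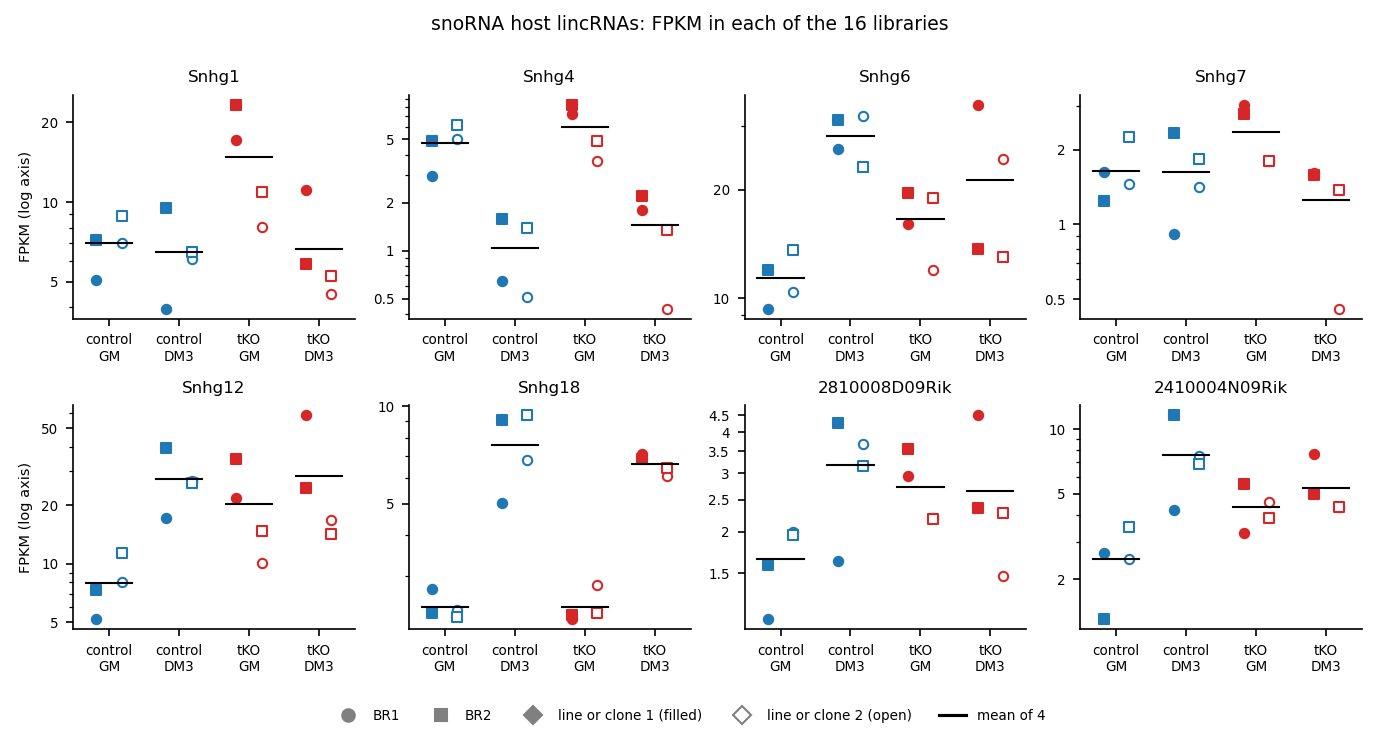
FPKM (log axis) of the 8 snoRNA host members in each of the 16 libraries, by group, with the same symbols as in the plot of large stage differences (circles BR1, squares BR2, filled population or clone 1, open population or clone 2, bar the mean of 4). In tKO GM the filled clone 1 symbols of Snhg1, Snhg4, Snhg7, Snhg12 and 2810008D09Rik lie above the open clone 2 symbols, and Snhg18 shows no such split.

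Of 12 nuclear and X-inactivation RNAs listed, 7 were tested, 3 of which rose and 3 fell in control cells and 2 rose and 2 fell in tKO cells, beside 61.5% and 60.9% of all genes called. Malat1 is described above. Xist stood at 29.8, 25.3, 21.9 and 39.8 FPKM in control GM and at 12.8, 22.2, 12.5 and 25.5 FPKM in control DM3 and passed narrowly (-0.68, limma adjusted p = 0.0496). In tKO cells its difference of -0.53 did not pass (limma adjusted p = 0.121). Neat1 passed in neither genotype, with differences of -0.40 and -0.82 (limma adjusted p = 0.344 and 0.0593). Pvt1, a neighbour of the Myc gene, rose by 0.90 in control cells (limma adjusted p = 0.00141) and differed by 0.14 in tKO cells (limma adjusted p = 0.578).

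Of 5 tested cytoplasmic or p53-related RNAs, 1 rose and 2 fell in each genotype, not all of them the same genes, beside 61.5% and 60.9% of all genes called. The members among them were 2410004N09Rik, described above, and 1700020I14Rik (Oip5os1, also known as Cyrano), which fell by 0.98 in control cells (limma adjusted p = 0.0204) and differed by -0.69 in tKO cells (limma adjusted p = 0.0911). Of 6 tested muscle RNAs and genes of small muscle or mitochondrial peptides, 3 rose and 1 fell in control cells, and 3 rose and 0 fell in tKO cells, against the same shares of all genes. 5330426P16Rik (Dubr, also known as Dum), described as a promoter of myoblast differentiation, was the one that fell in control cells. It went from 6.53, 4.59, 5.06 and 5.70 FPKM to 1.66, 2.22, 1.53 and 3.28 FPKM (-1.05, SE 0.29, limma adjusted p = 0.00449), and in tKO cells its difference of -0.53 did not pass (limma adjusted p = 0.122). 1810058I24Rik, which encodes a small mitochondrial protein, rose by 0.53 in control cells (limma adjusted p = 0.00194) and differed by 0.08 in tKO cells (limma adjusted p = 0.598). Yam1 differed by 0.07 in control cells (limma adjusted p = 0.888) and rose by 0.90 in tKO cells (limma adjusted p = 0.0452), with tKO GM at 2769, 1160, 3302 and 2294 FPKM and tKO DM3 at 5378, 2741, 4912 and 4123 FPKM, which overlap.

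Position was compared with the stage calls. The start of 20 members lay within 1000 bases of the start of a protein coding gene on the other strand. Of these 20, 2 rose and 9 fell in control cells, and 3 rose and 8 fell in tKO cells, beside 23.2% higher and 38.3% lower among all genes in control cells and 24.9% and 36.0% in the tKO. Of the 81 other members, 1 of them not tested, 22 rose and 24 fell in control cells, and 19 rose and 23 fell in tKO cells. Where the member and the gene beside it were both called, they had the same direction in 6 of 7 close pairs in control cells and in 5 of 5 in tKO cells. For the other members, paired with their nearest protein coding gene, it was 20 of 29 and 19 of 25. Both are descriptions, and the difference between close and other pairs was not tested. In the promoters of RefSeq (250 bases before to 50 after each gene's start), CAGCTG, a sequence bound by myogenic factors that reads the same on both strands, was present in 8 of 60 members and in 16.3% of all promoters. It was present in 3 of 9 members that rose in both genotypes and in 1 of 12 that fell in both. RefSeq gives Gm19705 2 starts, both inside the gene as the table lists it. The copy 28 bases before the second of them is shown in capitals because this member had one of the largest rises:
Gm19705 (chr1:136683584-136683623, + strand): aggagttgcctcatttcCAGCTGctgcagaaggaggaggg

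Few members differed between tKO and control cells, the comparison that asks what the loss of these microRNAs changes. In GM 0 of the 100 tested members differed between tKO and control cells (limma), against 2.06% of all genes. An unadjusted p under 0.05 was reached by 14 members, 9 higher and 5 lower, against 17.5% of all genes. With voom 0 passed, with 11 members at an unadjusted p under 0.05. The median difference of the members was 0.04 and that of all genes -0.01, and the groups did not overlap in 6 members, 3 of them higher and 3 lower, against 5.38% and 8.62% of all genes. In DM3 2 members passed, both higher in tKO cells, against 3.38% of all genes (2.02% higher and 1.36% lower). An unadjusted p under 0.05 was reached by 10 members, against 16.8% of all genes. The groups did not overlap in 3 members, all higher in tKO cells, against 4.22% of all genes higher and 4.3% lower. The counts turned on single clones and libraries. Without clone 2 the calls were 11 in GM and 10 in DM3, without clone 1 they were 0 and 1, and without either control population they were 0 in both stages. Leaving out 1 library gave 0 to 2 calls in GM, the most without clone 2 BR1, and 0 to 4 in DM3, the most again without clone 2 BR1.

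Gm27042 (chromosome 19, 40589435 to 40594862) starts 972 bases from Aldh18a1, a gene of proline synthesis, on the other strand. It stood at 1.69, 1.27, 1.86 and 2.80 FPKM in control DM3 and at 3.01, 3.39, 3.98 and 4.01 FPKM in tKO DM3, so each tKO library was above each control library. The log2 difference was 0.68 (SE 0.17, limma adjusted p = 0.0367). In GM it stood at 1.20 ± 0.238 FPKM in control and 1.29 ± 0.464 in tKO cells (SD, n = 4; difference 0.04, limma adjusted p = 0.939), and the interaction did not pass (0.64, limma adjusted p = 0.336). Aldh18a1 was at 62.0 ± 17.99 and 60.3 ± 10.9 FPKM in control and tKO DM3 (difference -0.02, limma adjusted p = 0.981). Gm27042 was also 1 of 2 members with an unadjusted p under 0.05 between the control populations.

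Gm13264 (chromosome 2, 11036874 to 11049066) was low, at 1 to 20 fragments in the control libraries of DM3 and 11 to 41 in those of the tKO. It stood at 0.434, 1.17, 0.104 and 1.66 FPKM in control DM3 and at 3.30, 4.49, 1.31 and 4.36 FPKM in tKO DM3, where clone 2 BR1 overlaps the controls. The log2 difference was 1.25 (SE 0.32, limma adjusted p = 0.0402), and in GM it was 0.45 (limma adjusted p = 0.502). Both calls were close to the threshold: under 20 alternatives each, that of Gm27042 was lost in 13 (adjusted p 0.0151 to 0.718) and that of Gm13264 in 14 (adjusted p 0.00936 to 0.467), with the direction kept in all.

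Gm14074, Snhg12 and 4930461G14Rik had the 3 differences furthest from 0 in GM, none of which passed, and 4930461G14Rik is named after its values were seen. Gm14074 was at 3.68, 1.95, 4.75 and 2.98 FPKM in control GM and at 1.88, 0.322, 0.309 and 0.236 FPKM in tKO GM, with no overlap (difference -1.42, SE 0.40, limma adjusted p = 0.0708). These values rest on few fragments, 53, 20, 66 and 40 in control GM and 23, 3, 4 and 3 in tKO GM. Gm14074 passed with a pseudocount of 0.1 (limma adjusted p = 0.036) and without the clone 1 BR1 library of GM (limma adjusted p = 0.0472). 4930461G14Rik was at 3.04, 2.32, 3.31 and 2.99 FPKM in control GM and at 11.6, 10.1, 7.07 and 3.87 FPKM in tKO GM (difference 1.14, SE 0.38, limma adjusted p = 0.126). In DM3 its clone 1 libraries were at 6.91 and 9.13 FPKM and its clone 2 libraries at 1.16 and 3.01 FPKM, the latter overlapping the controls at 1.18, 2.18, 1.61 and 1.93 FPKM.

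**Figure D4:**
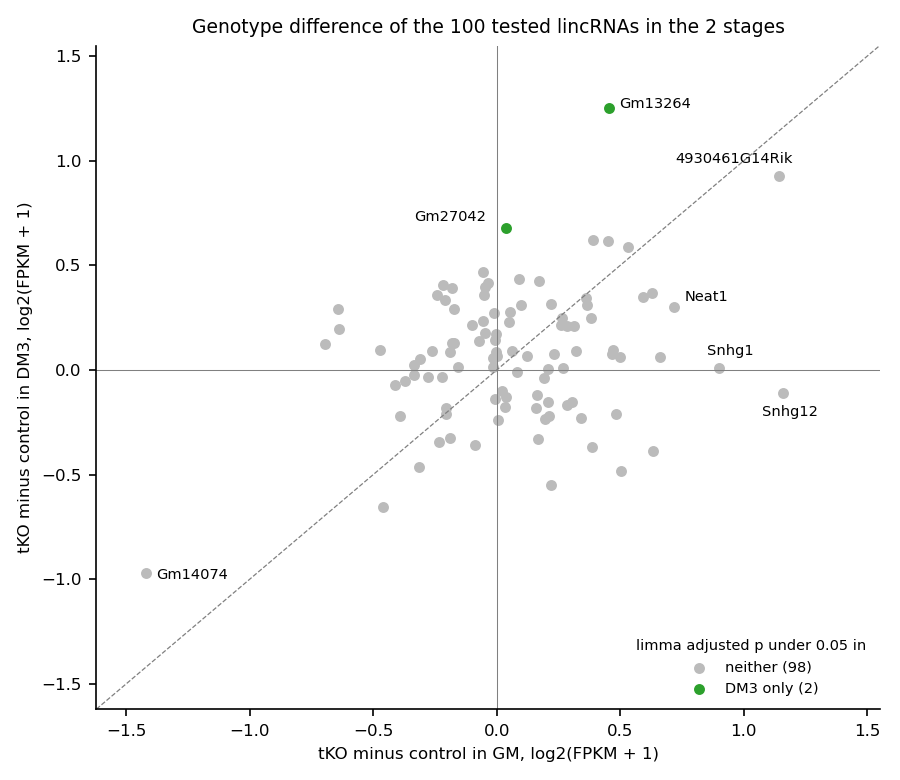
Difference between tKO and control of the 100 tested lincRNAs on the log2(FPKM + 1) scale, in GM (x axis) and in DM3 (y axis), each point 1 lincRNA. The 2 members called in DM3 are green, no member was called in GM, and Gm14074 is furthest to the left.

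The clones themselves set a yardstick. Between clone 2 and clone 1, 0 members passed (limma, with stage as a covariate), against 1.05% of all genes (0.6% higher and 0.448% lower), with 24 members at an unadjusted p under 0.05, 12 in each direction, and with voom 0 passed, with 24. Without the DM3 library of clone 1 BR2 the count was 4. Between the 2 control populations 0 members passed, against 0.0% of all genes, with 2 at an unadjusted p under 0.05, and with voom 0 passed, with 0. Xist was 0.75 higher in clone 2 (limma adjusted p = 0.0559), at 37.3 and 37.0 FPKM in GM against 21.1 and 22.1 FPKM in clone 1, and it passed with median-of-ratios scaling (limma adjusted p = 0.0263). 4930461G14Rik was 1.26 lower in clone 2 (limma adjusted p = 0.0598), and it also passed with that scaling (limma adjusted p = 0.0387).

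The members with a miR-206 seed match were compared with the rest. Of 93 members with a GENCODE release 21 transcript, 9 held ACATTCC in the longest one, searched on the transcript strand, and 4 of these held the longer ACATTCCA shown above. The share was 9.68%, against 20.5% of 11779 genes tested, whose longest transcripts had a median of 3244 bases against 1831 for the members. Among the 92 that were tested, the median tKO minus control difference in GM was 0.17 for the 9 members with a match and 0.04 for the 83 without. In DM3 it was -0.03 and 0.09. In GM 5 of the 9 and 46 of the 83 were above 0, and in DM3 4 and 53. None of the 9 passed in either stage (limma): 1190002F15Rik differed by -0.33 in DM3, 1810058I24Rik by -0.17, 9330136K24Rik by 0.31 and AU020206 by -0.36 (limma adjusted p = 0.735, 0.55, 0.303 and 0.383).

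The miR-206 host transcript (listed as mmu-mir-133b, chromosome 1, 20679023 to 20684298, + strand) had a mean of 0.41 FPKM, under the filter of the fit. The listed gene begins 13 bases after the first base of the Mir206 hairpin (20679010 to 20679082), so it contains the mature miR-206 printed above and the whole Mir133b hairpin (20682769 to 20682887). RefSeq lists a noncoding gene here, Lincmd1 (20669882 to 20682958), which shares 3936 bases with the listed gene. The values below are those of the listed gene alone, which may not be the whole host transcript. The listed gene was at 0 FPKM in the 4 tKO GM libraries and no higher than 0.0233 FPKM in control GM. In DM3 it was at 0.293, 0.636, 0.655 and 3.40 FPKM in control and 0.106, 0.395, 0.0957 and 0.925 FPKM in tKO cells, which overlap (difference -0.56, two-sided exact permutation p = 0.229, smallest possible 0.0286). Without the library of control population 2 BR2 the difference was -0.18. Within BR1 it was -0.41 and within BR2 -0.71.

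The BR number went with the level of many members in DM3, which was noticed after the values were seen. In 20 members all 4 BR2 libraries of DM3, of both genotypes, were above all 4 BR1 libraries, and in 2 they were below, against 10.3% of all genes in either direction and 7.45% above. The members above included Malat1 (275 to 367 FPKM in BR1 and 406 to 511 in BR2), Neat1 (2.09 to 4.95 and 5.10 to 9.80), 1700020I14Rik (2.32 to 4.14 and 4.31 to 12.1), 5330426P16Rik (1.53 to 2.06 and 2.22 to 5.92), Gm2115 (11.7 to 15.3 and 23.9 to 34.4) and Hotair, an RNA of the HoxC cluster (0.666 to 1.16 and 1.51 to 2.00). Those below were Yam1 (4912 to 6358 and 1897 to 4123) and Gpr137b-ps. In GM 9 members split by the BR number, 5 above and 4 below, against 9.58% of all genes, and Malat1 was above in both stages. The labels do not say what the BR number marks. Differentiated muscle markers summed to 857 to 1459 FPKM in BR1 and 344 to 1364 FPKM in BR2 of DM3, and their part in these differences was not tested. Each group holds 2 libraries of each number, so the genotype and stage differences compare equal numbers of both.

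**Figure D5:**
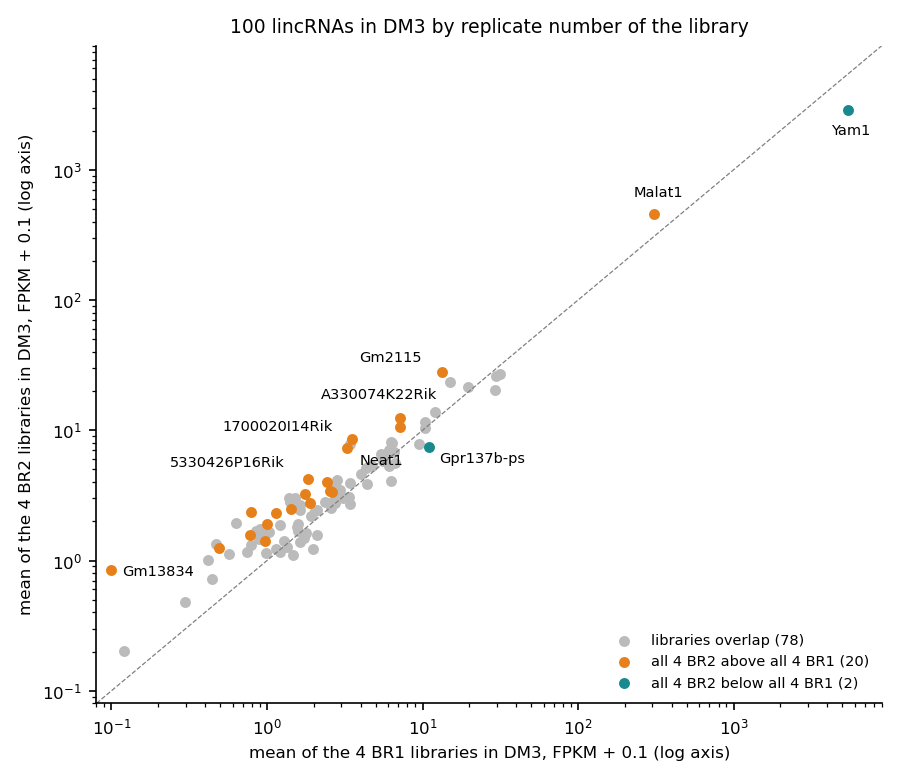
Mean level of the 100 lincRNAs in the 4 BR1 libraries (x axis) and the 4 BR2 libraries (y axis) of DM3, both genotypes together, in FPKM + 0.1 on log axes. The 20 members in orange had all BR2 libraries above all BR1 libraries, the 2 in teal (Yam1 and Gpr137b-ps) had them below, and the dashed line marks equal levels.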

How the data were processed

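Poly(A)-enriched RNA of 16 C2C12 libraries (4 groups of 4) was measured. The authors deposited 1 table of FPKM values with each gene's length, position and type. STAR, DESeq and build mm10 are named in the submitters' processing notes. The annotation release, versions and strand setting are not given in the sources used here. Coordinates are the table's, as GRCm38. Fragment numbers were worked out from the FPKM steps, whole within 0.05 for a median of 100% of values.

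Tests ran on log2(FPKM + 1) with limma 3.58.1 (R 4.3.3) in 1 model of 4 group means, on genes with a mean of at least 0.5 FPKM, with Benjamini-Hochberg adjustment over all 11832 genes. Tested on simulated data (tKO versus control in GM, 200 of 11832 genes changed), it recovered 81% of 2-fold and 98% of 4-fold changes, and 5.79% of calls were false. The changed genes were drawn from those above 2 FPKM, and the simulated libraries varied independently, without shared clones. These rates therefore do not carry over to the 38 members at 1 to 2 FPKM or to libraries that share a clone. The host transcript was compared by an exact permutation test. Summaries used Python 3.11.15, pandas 2.3.3, numpy 2.4.6 and scipy 1.17.1.

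The members and lists were chosen with earlier results of these data known. Named are the host transcript, the 5 highest members, up to 8 called members per direction and comparison with the largest difference, members on the lists, and those beside the level limit. Alternatives were pseudocount 0.1, other filters, median-of-ratios scaling, voom, replicate blocks, line averages, fewer libraries, and leaving out each library, population or clone. The counts over 64 members without an overlapping protein coding gene at 0.5 FPKM or more, over 67 members expressed in all groups and by BR number were added after seeing the data.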

Additional observations from a re-analysis of the deposited data

Results flagged for a closer look

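In each group of 4 libraries of the 40 named members, the library furthest from the others was compared with Dixon's limit for 4 values. Of 160 groups, 10 held a library beyond it, and chance flags about 1 in 20 groups.

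In GM, 1600020E01Rik was lowest in control population 1 BR1, at 0.643 FPKM against 0.836 to 0.846. Gm13834 was lowest in control population 1 BR2, at 0.294 FPKM against 2.91 to 3.46, a difference that rests on 1 to 16 fragments per library. In tKO GM, B230354K17Rik was lowest in clone 1 BR2, at 4.10 FPKM against 5.18 to 5.36. Gm14074 was highest in clone 1 BR1, at 1.88 FPKM against 0.236 to 0.322, on 3 to 23 fragments per library. RP23-132E8.2 was highest in clone 1 BR2, at 1.13 FPKM against 0.397 to 0.486. Snhg18 was highest in clone 2 BR1, at 2.82 FPKM against 2.21 to 2.299.

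In DM3, 6330403L08Rik was highest in control population 2 BR2, at 1.11 FPKM against 1.001 to 1.01. The tKO DM3 libraries held 3 such values. RP23-132E8.2 was highest in clone 1 BR1, at 5.99 FPKM against 3.59 to 3.84, 2010300F17Rik was highest in clone 1 BR2, at 0.293 FPKM against 0 to 0.0289, and Snhg7 was lowest in clone 2 BR1, at 0.458 FPKM against 1.37 to 1.62.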

How the results depend on the processing

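Of 57 calls of named members (limma, adjusted p under 0.05), 34 were kept under every alternative run, 23 were lost under at least 1, and 0 reversed. Lost were 13 without control population 1, 12 without population 2, 8 without clone 1, 7 with no filter and 5 without clone 2. For tKO versus control in GM, against 0 called members, 1 passed with a pseudocount of 0.1 and 11 without clone 2, and 0 to 2 with 1 library left out. In DM3, against 2, the count was 0 with a pseudocount of 0.1, with no filter, with line averages as units, with the 8 compared libraries alone, and without either control population. It was 1 with voom and without clone 1, 10 without clone 2, and 0 to 4 with 1 library left out. For DM3 versus GM in control cells, against 57, it was 26 without population 1, 32 without population 2 and 49 to 58 with 1 library left out. For tKO cells, against 53, it was 40 to 59 under every setting. Between the clones, against 0, it was 2 with median-of-ratios scaling and 0 to 4 with 1 library left out, and for the interaction 0 to 2. The cause of these moves was not tested. The host transcript's difference ranged from -0.77 to -0.18 with 1 library left out.

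The BR number was not taken to pair the libraries, because not every same-numbered pair deviated together in DM3. In GM all of them did, so the main fit leaves that difference in its spread. Between genotypes, same-numbered libraries correlated at 0.0955 to 0.452 in GM and -0.22 to 0.56 in DM3, and libraries of different number at -0.419 to -0.0558 and -0.456 to 0.338. With the BR number as a replicate block, the counts were 0 in GM, 2 in DM3, 58 in control cells, 57 in tKO cells and 1 between the clones, and none of the 57 named calls was lost. Over all genes, that block raised the tKO versus control calls from 244 to 336 in GM and from 400 to 523 in DM3. Members with under about 3 fragments per library, as in Gm13834, are at the limit of this depth.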
